A study of Mus musculus with 6 samples.

Results

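Kdm6a and its partners in the COMPASS-like complex were followed in 6 mouse liver tumour cell lines by RNA sequencing. The members were the rows of the deposited count table whose gene name was Kdm6a, Kmt2c, Kmt2d, Ncoa6, Paxip1, Pagr1a, Ash2l, Rbbp5, Wdr5 or Dpy30, which gave 10 of 53465 genes. Of these 10, 9 passed the filter on low counts, among 11510 genes tested in all, and Pagr1a did not.

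The lines came from tumours that had been started in the livers of adult female C57BL/6 mice by injecting plasmids into the tail vein under high pressure. A Sleeping Beauty transposon delivered c-myc for stable expression, and a second plasmid delivered Cas9 and a single guide RNA for a transient cut. Both groups therefore carry Myc. The 3 Myc_Utx lines (2A, 2B and 2D) received a guide against Kdm6a, for which Utx is an older name, and the 3 Myc_p53 lines (1, 2 and 3), the control group of the study, received a guide against the gene of their label. The series description states that the 3 lines of a group came from tumours of different mice, so lines are the replicates. No line was without a guide, so each difference below is one between the lines of 2 labels, and the part of either edit cannot be told apart. The labels and the study's methods differ in 1 respect that touches these genes: the labels name the first group Myc_Utx, while the methods passage on RNA sequencing names it Myc;sgMll3, and Mll3 is an older name of Kmt2c. The groups are used here as labelled.

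The COMPASS-like complex acts on enhancers, the stretches of DNA that raise the transcription of distant genes. Kmt2c and Kmt2d are alternative catalytic subunits that place methyl groups on histone H3 lysine K4, a mark of enhancers and promoters. Kdm6a is the catalytic subunit that takes repressive methyl groups off H3K27. Ncoa6, Paxip1 and Pagr1a are found in this complex and not in the related COMPASS complexes, while Ash2l, Rbbp5, Wdr5 and Dpy30 form the core that all of them share and that methyltransferase activity depends on. Genes of the complex are frequently mutated in human solid tumours.

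The 250 bases before the annotated start site of the 3 catalytic genes are shown first, because these 3 genes had the values on which most of the comparison turns. They are RefSeq sequences of mouse build GRCm38.p6, written 5′ to 3′ on the strand of the gene. Capitals mark CACGTG, the E-box that MYC proteins can bind, and GGGCGG, the GC box that Sp1 can bind, the latter on either strand and so also as CCGCCC. Adjacent matches can share bases.
Kdm6a, chrX:18162325-18162574, plus strand: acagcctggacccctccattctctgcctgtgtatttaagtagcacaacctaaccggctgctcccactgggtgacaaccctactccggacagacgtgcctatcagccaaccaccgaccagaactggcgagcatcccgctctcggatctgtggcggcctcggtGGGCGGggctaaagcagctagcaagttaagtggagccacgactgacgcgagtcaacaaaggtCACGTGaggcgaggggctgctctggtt
Kmt2c, chr5:25498784-25499033, minus strand: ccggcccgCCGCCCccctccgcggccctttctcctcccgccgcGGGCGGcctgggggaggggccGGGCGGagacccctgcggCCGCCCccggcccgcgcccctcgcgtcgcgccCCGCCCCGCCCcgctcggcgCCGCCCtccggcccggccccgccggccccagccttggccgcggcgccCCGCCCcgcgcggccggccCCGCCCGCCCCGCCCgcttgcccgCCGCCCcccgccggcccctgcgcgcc
Kmt2d, chr15:98871206-98871455, minus strand: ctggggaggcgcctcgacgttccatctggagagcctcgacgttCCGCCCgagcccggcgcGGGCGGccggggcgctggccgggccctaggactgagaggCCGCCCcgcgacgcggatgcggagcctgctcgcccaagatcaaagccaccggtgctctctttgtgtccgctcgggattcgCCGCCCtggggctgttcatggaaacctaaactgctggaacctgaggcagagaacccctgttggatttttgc
Kdm6a has 1 CACGTG and 1 GGGCGG in this window, with 59.6% G or C and 15 CpG. The Kmt2c window is 91.6% G or C, with 48 CpG and 12 GGGCGG. For Kmt2d the values are 67.6%, 26 CpG and 4 GGGCGG. None of the 3 windows holds CCAAT, the CCAAT box. Among all 32851 windows of this length in the table, 6.02% hold CACGTG, 32.7% GGGCGG and 33.9% CCAAT (either strand), and the median window has 52.4% G or C and 6 CpG. The matches describe the letters only, since no binding was measured in these data.

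Between 4656103 and 5473042 reads were counted per Myc_Utx library and between 5370608 and 6937497 per Myc_p53 library. Levels are given as TMM-normalized CPM, in which each count is scaled by the size of its library and by a factor for the composition of that library. Differences are log2 fold changes of Myc_Utx over Myc_p53 from edgeR (quasi-likelihood F test), with p adjusted over all 11510 genes and a threshold of 0.05. For single genes, 3 lines against 3 allow a two-sided exact permutation test no p below 0.1.

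Kdm6a (ENSMUSG00000037369, GRCm38 chromosome X, 18162575 to 18279936, plus strand) still gave transcript counts in every line labelled Myc_Utx. It had 39.5, 45.5 and 48.8 CPM in Myc_Utx 2A, 2B and 2D, and 69.2, 64.2 and 42.3 CPM in Myc_p53 1, 2 and 3. The groups overlapped, since Myc_p53 3 lay below both 2B and 2D. The means were 44.6 ± 4.69 against 58.6 ± 14.3 CPM (SD, n = 3 each), or -0.39 on the log2 scale (SE 0.22, 95% interval -0.91 to 0.13). This difference did not pass the test (edgeR adjusted p = 0.243, exact permutation p = 0.3). As a ratio of Myc_Utx to Myc_p53 the interval runs from 0.530 to 1.09. Small insertions and deletions left by Cas9 need not change the amount of a transcript, and the counts cover the whole gene, so they check neither the edit nor the protein.

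Kmt2c (ENSMUSG00000038056, chromosome 5, 25271798 to 25498783, minus strand) was the 1 member past the threshold. Its level was 69.3, 76.6 and 86.2 CPM in Myc_Utx 2A, 2B and 2D and 147.7, 115.3 and 120.8 CPM in Myc_p53 1, 2 and 3. Every Myc_Utx line lay below every Myc_p53 line. The means of 77.4 ± 8.50 and 127.9 ± 17.3 CPM (SD, n = 3 each) differed 1.65-fold, or -0.73 on the log2 scale (SE 0.15, 95% interval -1.08 to -0.37), with an edgeR adjusted p of 0.0289 and an exact permutation p of 0.1. The call was lost in 5 of the 6 fits that left out 1 line, where adjusted p ranged from 0.0288 to 0.0992; it held only without Myc_p53 2. It was also lost when length and GC content were corrected in each line, where the log2 fold change was -0.32 (95% interval -0.74 to 0.09, adjusted p = 0.244). Over the 6 fits that left out 1 line, the log2 fold change ran from -0.79 to -0.62. DESeq2 on all lines gave an adjusted p of 0.00192. Across all genes tested, 885 were called lower as reported, and 1, 38 and 28 without Myc_Utx 2A, 2B and 2D. Without Myc_p53 1, 2 and 3 these counts were 627, 1117 and 57. Kmt2c is the gene whose older name the methods passage gives to the edited lines, while the study elsewhere describes the sequenced lines as Myc;sgKdm6a. Whether the naming bears on the lower counts was not tested.

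Kmt2d (ENSMUSG00000048154, chromosome 15, 98831669 to 98871204, minus strand), the other H3K4 methyltransferase, had the highest raw counts of the complex. It was at 218.7, 195.9 and 227.8 CPM in Myc_Utx 2A, 2B and 2D and at 364.7, 322.6 and 246.1 CPM in Myc_p53 1, 2 and 3. The groups did not overlap, although Myc_p53 3 came close to Myc_Utx 2D. Its log2 fold change of -0.54 (SE 0.16, 95% interval -0.93 to -0.14) had an edgeR adjusted p of 0.0711 and an exact permutation p of 0.1. DESeq2 gave an adjusted p of 0.0390. With length and GC content corrected the log2 fold change was -0.14 (95% interval -0.64 to 0.36).

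Of the 9 members tested, 1 was called lower and 0 higher, while 14.7% of all genes tested were called in either direction and 7.69% were called lower. At an unadjusted p under 0.05, 3 members were lower (Kmt2c, Kmt2d and Ncoa6) and 0 higher, beside 18.3% of all genes that were lower and 35.0% that differed in either direction by that rule. DESeq2 called 2 members lower and 0 higher, beside 1572 lower and 1277 higher among the 13629 genes it tested. Groups did not overlap for 4 of the 9 members, or 44.4%, beside 42.0% of all genes tested, and these were Kmt2c, Kmt2d and Ncoa6 with lower levels in Myc_Utx (20.9% of all genes) and Ash2l with a higher level (21.1% of all genes). The median log2 fold change over the 9 members was -0.08, and over all genes tested -0.01. These shares lie near the background and are not a result about the members.

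**Figure D1:**
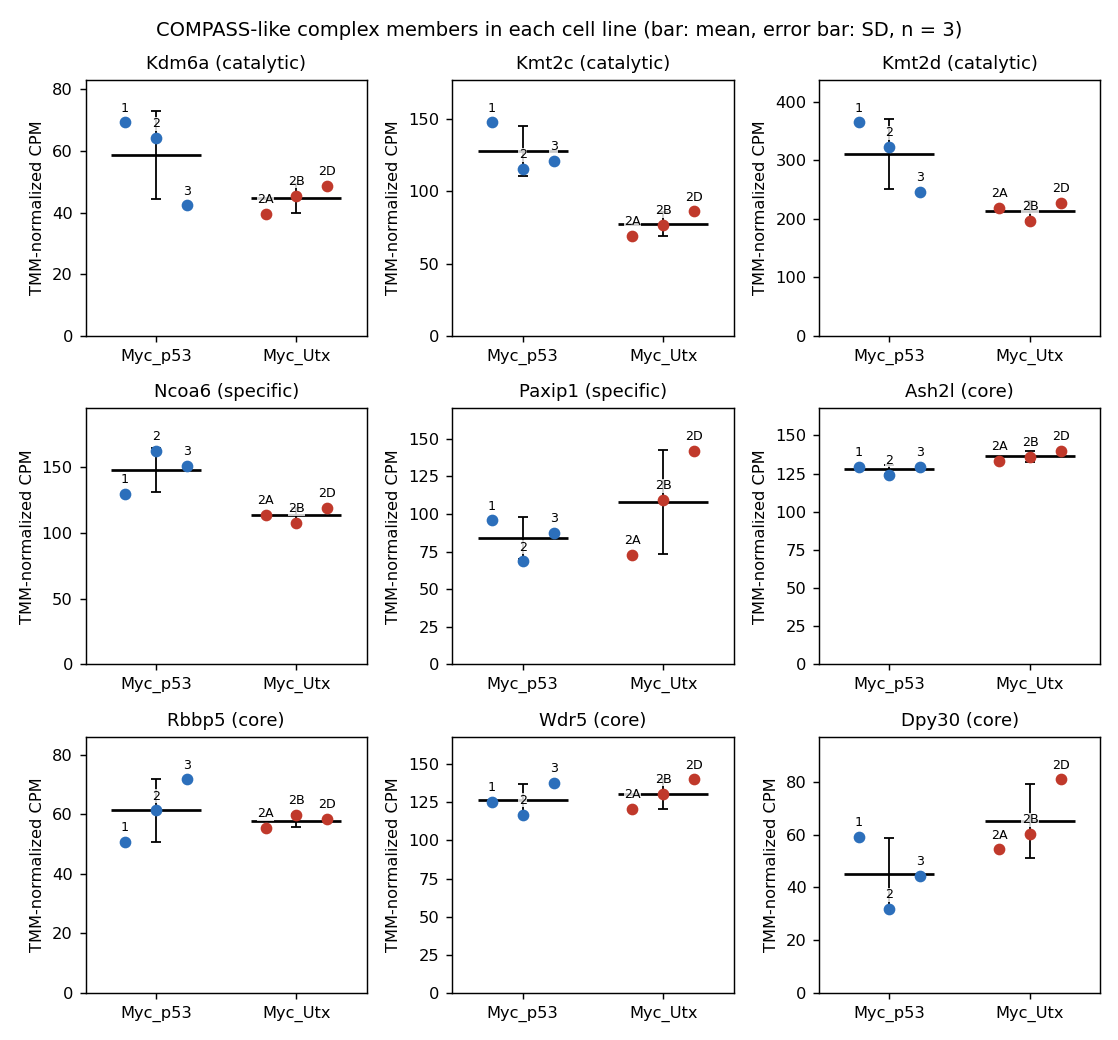
Level of the 9 tested members in each cell line, in TMM-normalized CPM on axes that start at 0, with Myc_p53 lines in blue, Myc_Utx lines in red, a bar at the mean and an error bar of 1 SD (n = 3). The groups separate for Kmt2c, Kmt2d, Ncoa6 and Ash2l, and Myc_p53 3 lies among the Myc_Utx lines for Kdm6a.

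Among the subunits particular to this complex, Ncoa6 (ENSMUSG00000038369, chromosome 2, 155390656 to 155473894, minus strand), a coactivator of nuclear receptors, had 113.7, 107.5 and 119.0 CPM in Myc_Utx 2A, 2B and 2D and 129.4, 162.2 and 151.0 CPM in Myc_p53 1, 2 and 3. All Myc_Utx lines lay below all Myc_p53 lines. The log2 fold change was -0.38 (SE 0.12, 95% interval -0.67 to -0.09), with an edgeR adjusted p of 0.0815 and an exact permutation p of 0.1. Correction for length and GC content brought it to -0.10 (adjusted p = 0.601).

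Paxip1 (ENSMUSG00000002221, chromosome 5, 27740080 to 27791691, minus strand), also called PTIP, a protein with BRCT domains that binds phosphorylated partners, varied most among the Myc_Utx lines. It had 72.8, 109.2 and 141.8 CPM in Myc_Utx 2A, 2B and 2D, a 1.95-fold range, and 95.6, 68.4 and 87.4 CPM in Myc_p53 1, 2 and 3. Myc_Utx 2A lay within the Myc_p53 range, and 2B and 2D lay above it. The log2 fold change of 0.36 (95% interval -0.27 to 0.99) did not pass the test (edgeR adjusted p = 0.362, exact permutation p = 0.4).

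Pagr1a (ENSMUSG00000030680, chromosome 7, 127015033 to 127017352, minus strand), the small partner of Paxip1, was listed with 0 counts in all 3 Myc_Utx lines and with 0, 1 and 1 counts in Myc_p53 1, 2 and 3. It was not tested, and no fold is given. Of its 1430 exonic bases, 1412 (98.7%) are also exonic in Gm42742, a gene model annotated on the same strand from 127015051 to 127021097, and 347 bases (24.3%) are also exonic in Pagr1b. Only 18 bases belong to Pagr1a alone. Gm42742 was listed with 4 counts in Myc_p53 2 and 0 in the other lines, and Pagr1b with 0 in every line. Reads that fall in exons of more than 1 gene are left out by the default setting of featureCounts, whose setting here is not given in the sources used. The near absence of counts therefore gives no level for Pagr1a, and its cause was not tested.

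**Figure D2:**
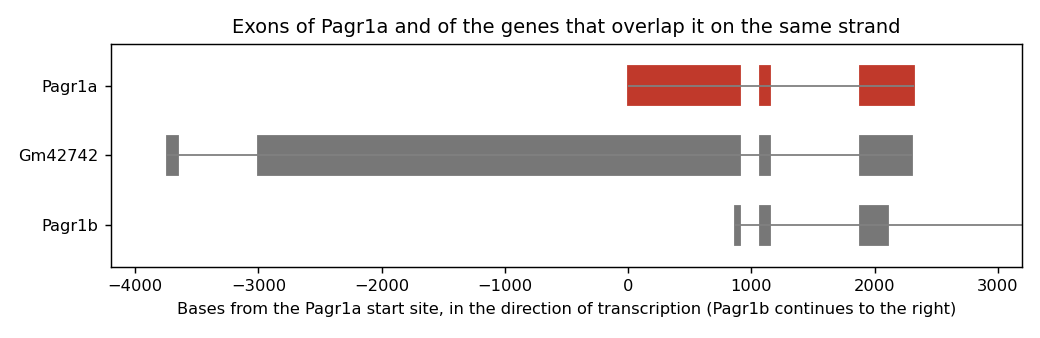
Exons (boxes) of Pagr1a in red and of the genes that overlap it on the same strand in grey, drawn to scale in bases from the Pagr1a start site, with lines for the introns. The boxes of Gm42742 cover 1412 of the 1430 exonic bases of Pagr1a.

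The core subunits showed smaller differences between the groups or wide spreads within them. Ash2l (ENSMUSG00000031575, chromosome 8, 25815996 to 25847694, minus strand), which stimulates the methyltransferase together with Rbbp5, had 133.0, 135.9 and 139.8 CPM in Myc_Utx 2A, 2B and 2D and 129.3, 124.2 and 129.4 CPM in Myc_p53 1, 2 and 3. All Myc_Utx lines lay above all Myc_p53 lines, but the groups stood little apart, at 136.2 ± 3.45 against 127.6 ± 3.0 CPM (SD, n = 3 each). The log2 fold change of 0.09 (95% interval -0.13 to 0.32) had an edgeR adjusted p of 0.504 and an exact permutation p of 0.1. Ash2l had the lowest coefficient of variation of the 9 members in both groups, 2.53% in Myc_Utx and 2.35% in Myc_p53.

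Rbbp5 (ENSMUSG00000026439, chromosome 1, 132477365 to 132505659, plus strand) had 55.4, 59.6 and 58.3 CPM in Myc_Utx 2A, 2B and 2D and 50.8, 61.2 and 71.7 CPM in Myc_p53 1, 2 and 3. The Myc_Utx values all fell inside the Myc_p53 range, and the log2 fold change was -0.08 (95% interval -0.47 to 0.30, adjusted p = 0.732). Its sign turned to 0.04 without Myc_p53 3.

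Wdr5 (ENSMUSG00000026917, chromosome 2, 27515157 to 27536535, plus strand), the propeller-shaped adaptor that holds the methyltransferase to the core, had 120.7, 130.8 and 140.1 CPM in Myc_Utx 2A, 2B and 2D and 125.2, 117.0 and 137.6 CPM in Myc_p53 1, 2 and 3. The groups overlapped along nearly their whole range. The log2 fold change of 0.04 (95% interval -0.23 to 0.32, adjusted p = 0.811) bounds a difference in either direction more tightly than for any member but Ash2l, and its sign changed in 3 of 12 alternatives.

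Dpy30 (ENSMUSG00000024067, chromosome 17, 74299474 to 74323944, minus strand), a small protein that binds Ash2l, had 54.4, 60.2 and 80.9 CPM in Myc_Utx 2A, 2B and 2D and 59.0, 31.7 and 44.4 CPM in Myc_p53 1, 2 and 3. Myc_p53 1 lay among the Myc_Utx lines, and the Myc_p53 lines covered a 1.86-fold range. Its log2 fold change of 0.53 (95% interval -0.11 to 1.18) was close in size to that of Kmt2d, but the spread within groups was wider and the edgeR adjusted p was 0.209 (exact permutation p = 0.2). With length and GC content corrected it was 0.16 (adjusted p = 0.662).

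**Figure D3:**
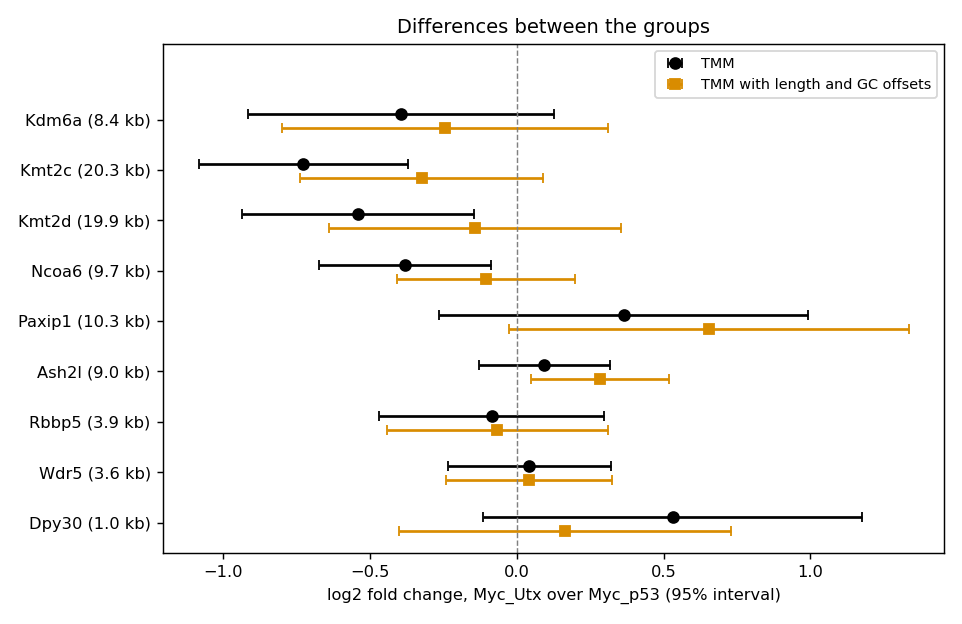
Log2 fold change of Myc_Utx over Myc_p53 for each tested member with its 95% interval, from the TMM fit (black circles) and from the fit that also corrects length and GC content in each line (orange squares). The TMM intervals of Kmt2c, Kmt2d and Ncoa6 lie below 0, and all 3 cross 0 after the correction, while the corrected interval of Ash2l lies just above 0 at an adjusted p of 0.103.

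The members at the ends of the order by fold change were also those at the ends of the order by length. By deposited length, Dpy30 at 974 bases was the shortest tested member and had the highest log2 fold change. Kmt2c and Kmt2d, at 20291 and 19887 bases, were the longest and had the lowest. Across all genes tested, log2 fold change fell with length (Spearman's rho -0.249 over 11510 genes, which share the same 6 libraries and are not independent). Genes under 1 kb had a median log2 fold change of 0.39 (n = 353), those from 8 to 16 kb a median of -0.23 (n = 1839), and those of 16 kb or more a median of -0.45 (n = 245), of which 78.0% were negative. Kmt2c at -0.73 and Kmt2d at -0.54 lay below the median of their class, and Kdm6a at -0.39 and Ncoa6 at -0.38 below that of theirs. Paxip1 at 0.36 and Ash2l at 0.09, of the same length class as Kdm6a, lay above it. With length and GC content corrected, the log2 fold change was -0.24 for Kdm6a (adjusted p = 0.50), 0.65 for Paxip1 (adjusted p = 0.169) and 0.28 for Ash2l (adjusted p = 0.103), and no member passed the test. RNA integrity was not measured in these files, and whether the length trend reflects the RNA, the libraries or the cells was not tested.

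**Figure D4:**
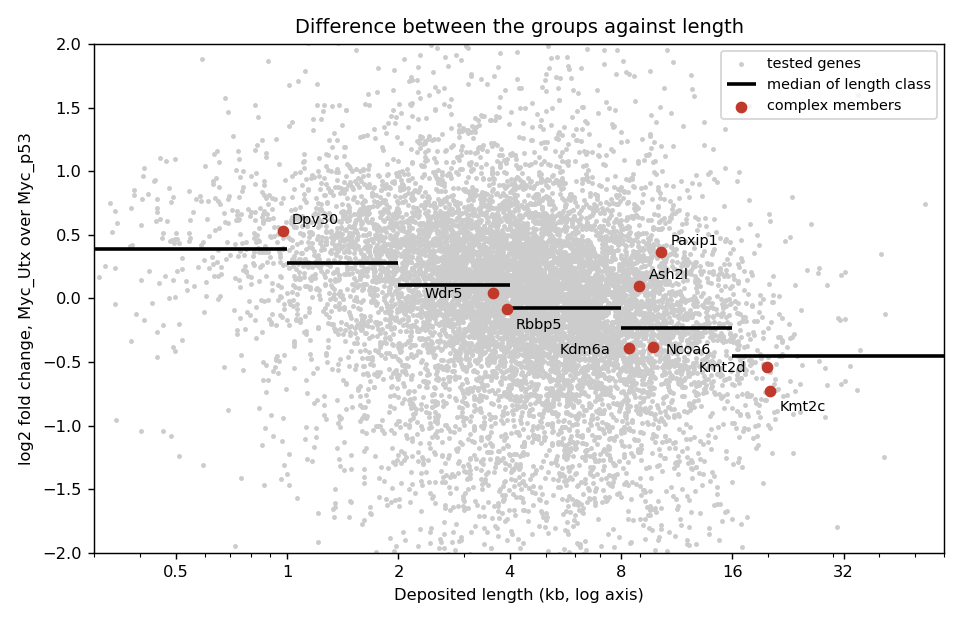
Log2 fold change of Myc_Utx over Myc_p53 against deposited exonic length (kb, log axis) for the genes tested (grey), with the median of each length class (black lines) and the 9 tested members (red); 737 genes lie outside the axes. The class medians fall from 0.39 under 1 kb to -0.45 at 16 kb or more, and Kmt2c and Kmt2d sit in the longest class.

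Levels of different members were compared per kilobase of exon, by deposited length. For Dpy30 that length is 974 bases, against 1146 annotated exonic bases. In the Myc_Utx lines the order ran from Dpy30 at 66.9 CPM per kb and Wdr5 at 36.3, through Ash2l at 15.2, Rbbp5 at 14.7, Ncoa6 at 11.6, Kmt2d at 10.8 and Paxip1 at 10.5, to Kdm6a at 5.32 and Kmt2c at 3.81. The ranges over lines overlapped between the neighbours Ash2l and Rbbp5, Ncoa6 and Kmt2d, and Kmt2d and Paxip1. In the Myc_p53 lines the order was Dpy30 at 46.2, Wdr5 at 35.2, Kmt2d at 15.7, Rbbp5 at 15.6, Ncoa6 at 15.1, Ash2l at 14.2, Paxip1 at 8.16, Kdm6a at 6.99 and Kmt2c at 6.30. There the neighbours were apart only between Wdr5 and Kmt2d and between Ash2l and Paxip1. Dpy30 and Wdr5 had the highest levels and Kdm6a and Kmt2c the lowest in both groups. Per kilobase of the longest annotated transcript, Ash2l stood next after Wdr5 in both groups, at 36.8 CPM per kb in Myc_Utx and 34.5 in Myc_p53, and Kdm6a and Kmt2c stayed lowest, at 7.51 and 5.17 in Myc_Utx and 9.87 and 8.55 in Myc_p53.

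**Figure D5:**
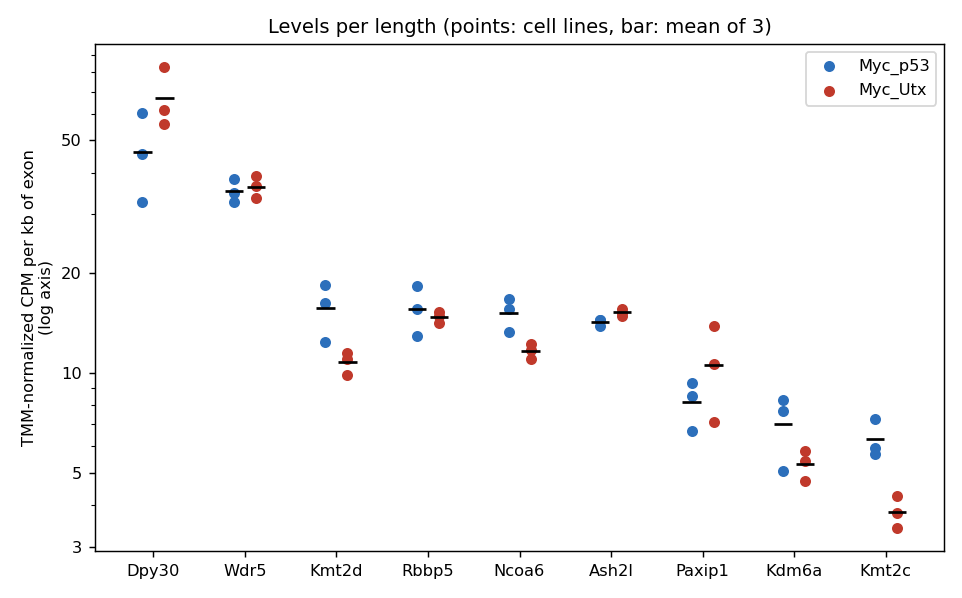
TMM-normalized CPM per kilobase of exon (log axis) of the 9 tested members in each Myc_p53 line (blue) and Myc_Utx line (red), with a bar at the mean of 3. Dpy30 and Wdr5 lie highest, at group means of 35.2 or more, and Kdm6a and Kmt2c lowest, at 6.99 or less.

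Ratios within a line compare members without the scaling between libraries. The ratio of Kmt2d to Kmt2c per kilobase was 3.22, 2.61 and 2.70 in Myc_Utx 2A, 2B and 2D and 2.52, 2.86 and 2.08 in Myc_p53 1, 2 and 3. The groups overlapped, so the balance between the alternative methyltransferases was not told apart between them. Kdm6a over Kmt2c was 1.38, 1.44 and 1.37 against 1.13, 1.35 and 0.848, and the groups did not overlap. The closest values for Kdm6a over Kmt2c were 1.37 in Myc_Utx 2D and 1.35 in Myc_p53 2. Kdm6a over Kmt2d was 0.428, 0.551 and 0.508 against 0.450, 0.472 and 0.408, with overlap. Wdr5 over Kmt2c was 9.83, 9.64 and 9.17 in the Myc_Utx lines and 4.78, 5.72 and 6.43 in the Myc_p53 lines, without overlap. Wdr5 over Kmt2d, the other long methyltransferase gene, was 3.05, 3.69 and 3.40 against 1.90, 2.01 and 3.09, with overlap. Wdr5 has 3596 exonic bases and Kmt2c 20291. Among all genes tested, the median log2 fold change was 0.10 from 2 to 4 kb and -0.45 at 16 kb or more. The ratios were not corrected for this trend. As single genes, 42.0% of those tested separated between the groups, and no such share was obtained for ratios of other gene pairs.

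Across the 6 lines, the genes whose log2 levels followed Kdm6a most closely, among 9484 tested genes whose mean count reached 50, were Idh3b (Pearson's r 0.997), Exosc10 (0.975), Jarid2 (0.969), Zbtb48 (0.968) and Glyr1 (0.964). Idh3b is a subunit of mitochondrial isocitrate dehydrogenase, Exosc10 a nuclease of the RNA exosome, and Jarid2 an accessory subunit of the H3K27 methyltransferase complex PRC2. Idh3b had 161.8, 178.2 and 185.1 CPM in Myc_Utx 2A, 2B and 2D and 220.2, 214.5 and 171.6 CPM in Myc_p53 1, 2 and 3. Like Kdm6a, it was lower in Myc_p53 3 than in the other Myc_p53 lines. These are the highest of 9484 correlations over 6 points, a description of these lines.

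Of the 12 subunits of the other COMPASS complexes, all tested, 0 were called higher and 1 lower, with a median log2 fold change of 0.04. Kmt2a, the methyltransferase MLL1, was at 167.5, 139.0 and 133.0 CPM in Myc_Utx 2A, 2B and 2D and at 323.8, 321.4 and 291.9 CPM in Myc_p53 1, 2 and 3, which is -1.09 on the log2 scale (SE 0.13, edgeR adjusted p = 0.0130). All its Myc_Utx values lay below all its Myc_p53 values, and it stayed past the threshold with length and GC content corrected (-0.73, adjusted p = 0.0248). Without Myc_Utx 2A, 2B or 2D its edgeR adjusted p was 0.0614, 0.0568 and 0.0592, and its log2 fold change -1.18, -1.04 and -1.01. Over all genes, those fits called 3, 43 and 43 higher and 1, 38 and 28 lower, against 805 and 885 as reported. For Kmt2b, a paralog of Kmt2a added here after its value was seen, the log2 fold change was -0.21 (edgeR adjusted p = 0.188).

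Of the 6 genes of the Kdm6 family and the H3K27 enzymes, 5 were tested, 1 was called higher and 1 lower, and the median log2 fold change was 0.16. Eed, the PRC2 subunit that binds methylated H3K27, was higher in the Myc_Utx lines at 79.1 ± 2.93 against 49.4 ± 3.37 CPM (SD, n = 3 each; log2 fold change 0.68, edgeR adjusted p = 0.0213). Ezh1, a methyltransferase of H3K27, was lower at 21.5 ± 2.83 against 38.8 ± 5.50 CPM (log2 fold change -0.85, edgeR adjusted p = 0.0336). Kdm6b, the other H3K27 demethylase, had 84.9 ± 9.97 and 113.7 ± 20.9 CPM (log2 fold change -0.42, edgeR adjusted p = 0.139), chosen here after its value was seen. Uty, the Y-linked relative of Kdm6a, was at 0 counts in every line. Eed kept its call with length and GC content corrected. It lost the call without Myc_Utx 2A, 2B or 2D or Myc_p53 3 (edgeR adjusted p 0.0706 to 0.0787). Over the fits that left out a line its log2 fold change was 0.636 to 0.725. Over all genes, 805 were called higher and 885 lower as reported. They were 3 and 1, 43 and 38, and 43 and 28 without Myc_Utx 2A, 2B and 2D, and 63 and 57 without Myc_p53 3. Ezh1 lost its call with that correction (edgeR adjusted p = 0.0820) and without any line but Myc_p53 2 (edgeR adjusted p 0.0632 to 0.109).

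For the 6 H3K4 demethylases, of which 5 were tested, 0 were called higher and 1 lower, with a median of -0.09. The gene called was Kdm5a, at 123.3 ± 3.72 CPM in Myc_Utx and 174.6 ± 15.8 in Myc_p53 (SD, n = 3 each; log2 fold change -0.50, edgeR adjusted p = 0.0340). Of the 12 enhancer coactivators, all tested, 0 were called higher and 1 lower, and 10 had a negative log2 fold change, beside 50.8% of all genes tested, with a median of -0.18. Ncoa3, a coactivator of nuclear receptors, was at 54.1 ± 3.92 against 99.9 ± 3.12 CPM (SD, n = 3 each; log2 fold change -0.88, edgeR adjusted p = 0.0162). Kdm5a lost its call with length and GC content corrected (edgeR adjusted p = 0.211) and without any line but Myc_p53 2 (edgeR adjusted p 0.0656 to 0.118). Ncoa3 kept its call under that correction but lost it without Myc_Utx 2A, 2B or 2D or Myc_p53 3 (edgeR adjusted p 0.0539 to 0.0665). Without those lines few of all genes tested stayed called, as given for Eed. The log2 fold change of Ncoa3 was -0.91 to -0.811 over the fits that left out a line. Each of these 4 lists had at most 1 call in a direction, beside 7.69% of all genes called lower and 6.99% called higher.

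Kdm6a lies on the X chromosome and escapes X inactivation in females, so X-linked escape genes and their Y-linked relatives were read beside it. Of 10 such genes 6 were tested and 0 were called in either direction. DESeq2 called 2, beside 1277 higher and 1572 lower among the 13629 genes it tested. Xist, the RNA of the inactive X, was present in every line, at 1024.0, 798.9 and 979.8 CPM in Myc_Utx 2A, 2B and 2D and at 1808.0, 806.9 and 1414.0 CPM in Myc_p53 1, 2 and 3, while the 4 Y-linked genes Uty, Kdm5d, Ddx3y and Eif2s3y were at 0 counts throughout. Utp14a (log2 fold change 0.86, adjusted p = 0.0824), Pbdc1 (0.72, adjusted p = 0.149) and Eif2s3x (0.51, adjusted p = 0.0738; chosen after its value was seen) had higher values in every Myc_Utx line than in any Myc_p53 line without passing the test, beside 21.1% of all genes tested that separated in this direction. Ddx3x (0.31) and Kdm5c (0.18) were also positive, with overlapping groups. Kdm6a (-0.39, edgeR adjusted p = 0.243) and Xist (-0.52, edgeR adjusted p = 0.246) were negative, and neither passed the test.

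The lines, which the study passaged until other cell types were no longer seen, differed in markers of cell types, and in bulk RNA fewer cells of a type and less RNA per cell cannot be told apart. The summed level of 8 hepatocyte markers ran from 2.88 to 94.1 CPM in Myc_Utx and from 52.2 to 1214 CPM in Myc_p53, and albumin (Alb), which defines mature hepatocytes, had only 4 to 26 counts in any line. The highest hepatocyte sums came mostly from the keratins Krt8 and Krt18, with Krt8 at 12.1, 37.3 and 0 CPM in Myc_Utx 2A, 2B and 2D and 713.6, 15.3 and 444.2 CPM in Myc_p53 1, 2 and 3 (adjusted p = 0.105), while the difference for Alb was 0.52 on the log2 scale (adjusted p = 0.578). Of the 4 hepatocyte markers tested, 3 had a negative log2 fold change and 1 a positive one. The 1 called lower in Myc_Utx was Apob (log2 fold change -5.80, edgeR adjusted p = 0.0240), and 0 were called higher. Apob had 0, 6 and 1 counts in Myc_Utx 2A, 2B and 2D and 88, 71 and 378 in Myc_p53 1, 2 and 3. Summed over 8 macrophage markers the ranges were 2.78 to 5.96 against 39.7 to 107.6 CPM, with 5 of the 6 that were tested called lower in Myc_Utx, beside 7.69% of all genes, and Ptprc at or under 3 counts in every line. The sum of 7 fibroblast or stellate cell markers ranged from 1943 to 2679 CPM in Myc_Utx and from 41.1 to 3149 CPM in Myc_p53, most of it Col3a1 in the lines with high sums. For 5 cholangiocyte markers it ranged from 508.0 to 1435 against 152.2 to 1455 CPM, with Spp1 the largest part in every line. Of the 3 cholangiocyte markers tested, 0 were called, 2 had a positive log2 fold change and 1 a negative one. These were 0.94 for Sox9 (edgeR adjusted p = 0.131), 0.21 for Spp1 (edgeR adjusted p = 0.88) and -3.22 for Krt19 (edgeR adjusted p = 0.0653). Endothelial and lymphocyte markers summed to at most 1.42 CPM in any line, and Lum, Pecam1, Stab2, Tek, Cd3e, Cd3g, Cd79a, Ms4a1 and Nkg7 were also at or under 3 counts throughout. The part of these differences in the levels of the complex members was not tested.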

How the data were processed

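Total RNA of 6 cell lines, 3 per group, was sequenced. The authors deposited raw counts of reads per Ensembl gene, without normalization, with an exonic length for each gene; the submitters' processing notes name Trimmomatic 0.36, STAR 2.5.3a, featureCounts 1.6.3, DESeq2 1.20.0 and GRCm38, and all columns were used. The study's methods name HTSeq and a human build instead, but 95.95% of genes have the coordinates of GENCODE M21 (GRCm38), and the deposited length equals the merged exons of that annotation for 95.25%. Dpy30 and Kmt2d are among the exceptions, with 1146 and 19931 merged exonic bases against deposited lengths of 974 and 19887. Whether counting used strand is not given in the sources used here.

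Groups followed the genotype labels. In R 4.3.3, edgeR 4.0.16 kept genes with filterByExpr (minimum count 10), normalized with TMM and fitted the quasi-likelihood F test between groups, with Benjamini-Hochberg adjusted p over 11510 genes. The standard error (SE) of a log2 fold change was taken from its size and F, and 95% intervals use the degrees of freedom of that test (4.46 to 6.46). For single members an exact permutation test, two-sided, was run on log2 normalized levels. At or under 3 counts a gene was taken as at the floor. The common dispersion of 0.112 is a biological coefficient of variation of 33.4%. Alternatives were no filter, at least 10 counts in every line, DESeq2 size factors, total counts only, offsets per line for length and GC content (robust fit with MASS 7.3.60.0.1 of splines with 5 degrees of freedom), the DESeq2 1.42.0 test, length of the longest transcript, and leaving out each line. The procedure was tested on data simulated with the same dispersion for all genes. It called 7% of genes changed by 1 on the log2 scale and 89% of those changed by 2. Of the calls, 2.04% were false. Members that did not pass the test are therefore not shown to be unchanged. Promoter windows came from RefSeq, with 9 of 10 members matched by gene name. The start site of the Ncoa6 window lay 33111 bases from the annotated start of that gene.

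The members and gene lists were chosen with earlier results of these data known. Named are all members, in each other list the genes past the threshold or else at most the 3 of largest log2 fold change, and the 5 genes most correlated with Kdm6a. The gene targeted in the Myc_p53 lines is not reported here. Guide RNA and protein sequences were not used here.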

Additional observations from a re-analysis of the deposited data

How the results depend on the processing

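No member was called higher under any of 12 alternative fits. The count of members called lower, 1 as reported, was 0 with length and GC offsets, 2 with DESeq2, and 0 to 1 when lines were left out in turn (0 in 5 of 6). Kdm6a stayed negative and past no threshold, from -0.59 without Myc_p53 3 (adjusted p = 0.0951) to -0.24 with the offsets (adjusted p = 0.50), and from -0.59 to -0.26 over the fits that left out a line. Kmt2c lay between -0.79 and -0.32 (adjusted p 0.00192 to 0.244). With a line left out Rbbp5 ranged from -0.21 to 0.0408, its sign turning without Myc_p53 3, and Wdr5 from -0.00809 to 0.116. The sign of Wdr5 turned with at least 10 counts in every line (-7.56e-05), by total counts only (-0.0171) and without Myc_p53 2 (-0.00809). The calls in the other COMPASS subunits were 1 as reported and 0 to 1 with a line left out; in the Kdm6 family and H3K27 enzymes 2, then 1 without the filter, 1 with the offsets and 0 to 2 with a line left out; in the H3K4 demethylases 1, then 0, 0 and 0 to 1 under the same settings. For the enhancer coactivators they were 1, then 2 with at least 10 counts in every line, 2 by total counts, 3 with DESeq2 and 0 to 2 with a line left out, and for the X-linked and Y-linked genes 0, then 2 with DESeq2 and 0 to 1. The level of Kdm6a in Myc_p53 moved from 6.99 to 9.87 CPM per kb with the longest transcript. The cause of these shifts was not tested. No paired analysis was possible because no replicate label of one group is also a label of the other (2A, 2B and 2D against 1, 2 and 3). Of 11510 genes tested, 805 were called higher and 885 lower as reported. DESeq2 called 1277 higher and 1572 lower of 13629, and 3 and 1 were called without Myc_Utx 2A. Dropping Myc_Utx 2B left 43 and 38, dropping Myc_Utx 2D 43 and 28, dropping Myc_p53 1 481 and 627, and dropping Myc_p53 3 63 and 57, while dropping Myc_p53 2 raised the counts to 836 and 1117. With 3 lines a group, a difference of the size seen for Kdm6a lay within the spread between lines.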

Other observations

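Ep300, the acetyltransferase that works with the COMPASS-like complex at enhancers, was singled out after its values were seen. It had 756, 757 and 627 counts in Myc_Utx 2A, 2B and 2D and 1319, 3854 and 1501 counts in Myc_p53 1, 2 and 3. Normalized, these were 150.1, 141.1 and 139.0 against 207.4, 711.0 and 213.0 CPM, so Myc_p53 2 stood far above the other lines. The log2 fold change of -1.40 (standard error 0.50) had an edgeR adjusted p of 0.103. Kat2b, an acetyltransferase also seen only afterwards, had 17.3, 35.2 and 26.8 CPM in Myc_Utx and 47.0, 53.9 and 54.8 CPM in Myc_p53 (log2 fold change -0.97, edgeR adjusted p = 0.0563).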
